A study of Mus musculus with 12 samples.

Results

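Histone genes were followed through 12 mRNA libraries of cultured mouse fat-tissue cells, in which the microRNA miR-26 was either deleted or overexpressed. The genes were taken by name: each row of the deposited tables whose symbol begins with Hist1h to Hist4h was counted as a replication-dependent gene, and each row whose symbol begins with H1f, H2af or H3f as a replacement gene. The reference annotation holds 91 genes with such names, 70 replication-dependent and 21 replacement. The tables list 41 of them, 38 in the comparison of TKO with WT and 33 in that of Dox with CTL, and 30 are listed in both. In TKO against WT these were 27 replication-dependent and 11 replacement genes among 19262 genes listed. The 33 genes in Dox against CTL were 21 replication-dependent and 12 replacement genes among 16785. The rule counts H3f3aos, an antisense RNA that overlaps H3f3a, and H3f3a-ps1, a pseudogene, as replacement members.

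Histones are the proteins around which DNA is wound. The core histones H2A, H2B, H3 and H4 form the nucleosome, and the linker histone H1 binds where the DNA enters and leaves it. Replication-dependent genes lie in clusters, are transcribed mainly while DNA is copied, and give mRNAs that normally end in a conserved stem-loop without a poly(A) tail. The stem-loop is bound by the protein Slbp, and the mRNA is cut just behind it by a machinery that contains the U7 snRNP. Replacement genes lie singly, mostly contain introns, are expressed outside S phase too, and mostly give ordinary polyadenylated mRNAs, for variants such as H2A.Z and macroH2A. H2afx, the gene of H2A.X, also holds a stem-loop. Since the libraries were made with a kit that selects polyadenylated RNA, a replication-dependent gene is seen only through the transcripts that carry a poly(A) tail, and its signal is not a measure of its total mRNA. The same limit holds for any H2afx transcripts that end at the stem-loop.

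TKO cells lacked all miR-26 genes: miR-26b was deleted on both chromosomes (miR-26b-/-), and so were both genes of miR-26a (miR-26a-1-/- and miR-26a-2-/-). WT cells carried none of these deletions. Dox cells carried M2rtTA, a transactivator that needs doxycycline, and eGFP.miR-26a, and were given doxycycline (1 mg/ml) over 4 days. CTL cells carried the same transgenes and were left untreated. All 4 groups were primary stromal vascular cells of white adipose tissue from C57BL/6 mice aged 6 weeks, grown to confluency, with 3 libraries per group. No group received doxycycline without the miR-26a transgene, so the drug and the microRNA cannot be told apart in Dox against CTL. The labels give no promoter for the transgenes and do not say whether replicates were separate animals or cultures, so p-values measure only the spread between these samples. miR-26 itself was not analysed here.

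Values are the deposited signal, read counts that the authors brought to one library size and multiplied by a factor for each library. Whole reads could be recovered from it, 71455171 to 83461531 per TKO library, 54978109 to 61307152 per WT library, 19301969 to 25785439 per Dox library and 20182665 to 24122542 per CTL library. A gene was tested if 3 or more of the 6 libraries of a comparison had a signal of 1 or above, with limma on log2(signal + 1). The filter left 12649 genes in the TKO and WT libraries, and 12634 in the Dox and CTL libraries. Adjusted p-values follow Benjamini and Hochberg over all genes tested in a comparison, and the threshold was 0.05. Fold changes are on the log2(signal + 1) scale, which understates the change of genes of low signal. Markers of progenitors were listed in every library (summed signal 2357, 2290.1 and 2260.1 in TKO, against 3035, 2927 and 2918 in WT), and those of other cell types differed between libraries of the same group. Macrophage markers summed to 54.6, 247 and 47.1 in TKO, against 43.8, 34.7 and 54.4 in WT, and epithelial markers to 0.355, 17.3 and 75.5 in TKO, against 28.4, 31.4 and 7.39 in WT. Of the marker lists, 2 of 7 progenitor markers (Thy1 and Pdgfrb) and 1 of 5 endothelial markers (Flt1) fell in TKO, and 0 rose, where 22.7% of all genes tested fell and 23.2% rose. The adipocyte, macrophage, mesothelial, epithelial and Schwann cell lists had 0 calls in limma in either comparison. In the fit of Dox against CTL with replicates paired, which is used for the histone genes below, Dlk1 and Ly6a (progenitor), Lpl (adipocyte) and Kdr (endothelial) passed, with log2 fold changes of 0.39 ± 0.08 (SE, paired limma adjusted p = 0.043), -0.60 ± 0.13 (SE, paired limma adjusted p = 0.047), -0.48 ± 0.08 (SE, paired limma adjusted p = 0.024) and 0.51 ± 0.08 (SE, paired limma adjusted p = 0.023). Their part in the histone values was not tested. None of the markers listed stood at 0, but neither did any other listed gene in any library. A listed marker is therefore no sign that its cell type was present. The epithelial sum was 176, 42.3 and 15.3 in Dox, against 161, 32.1 and 4.57 in CTL. These are bulk libraries, in which fewer cells of a type and less RNA per cell cannot be told apart.

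The stem-loop was searched in the annotated 3' UTR of 1 transcript per gene (GENCODE vM21, GRCm38), as 6 bases that begin with GG, a loop of 4 bases that begins with TTT, and the reverse complement of the first 6. It was found in 23 of the 29 replication-dependent genes listed, in 1 of the 10 protein-coding replacement genes listed, H2afx, and in 0.166% of the 12081 protein-coding genes tested. It lay 24 to 46 bases behind the stop codon. The transcript taken was the longest of a gene's complete protein-coding annotations where it had any. Tail lengths and levels per kb below rest on that choice. The stem-loops of the replication-dependent genes that passed the test in TKO are shown with that of H2afx, so that the 3' signal can be compared between the kinds of gene. Capitals mark the stem and the loop.
Hist1h1c: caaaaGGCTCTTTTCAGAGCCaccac
Hist1h4i: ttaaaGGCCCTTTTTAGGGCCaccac
Hist2h3c2: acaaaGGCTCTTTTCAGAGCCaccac
Hist3h2a: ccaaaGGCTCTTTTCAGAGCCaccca
H2afx: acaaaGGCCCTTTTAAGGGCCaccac
They lie at chr13:23739507-23739532 (Hist1h1c, plus strand), chr13:22040961-22040986 (Hist1h4i, minus strand), chr3:96238480-96238505 (Hist2h3c2, minus strand), chr11:58955167-58955192 (Hist3h2a, plus strand) and chr9:44335235-44335260 (H2afx, plus strand), all in the 3' UTR. Hist1h1c, Hist2h3c2 and Hist3h2a share their 16 bases with 11 other listed genes. Hist1h4i shares its own with Hist2h4 alone.

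Behind the stem-loop the annotated transcripts of the listed genes went on. Of the 23 listed replication-dependent genes with a stem-loop, 18 had at least 100 further annotated bases, with a median of 385. Of the 20 with a stem-loop among the 38 protein-coding ones not listed in either table, 4 did, with a median of 35. The share of 50-base stretches that also occur in other genes reached 0.734 in the listed genes. In the unlisted genes with a stem-loop it went from 0 (Hist1h1t) to 1.0 (Hist2h3c1). No listed gene stood at 0 in any library, so an unlisted gene may have had reads in some libraries. The part of tail length or shared sequence in the listing was not tested. A poly(A) signal stood in the last 50 bases of 31.0% of the listed replication-dependent transcripts, of 80.0% of the listed replacement transcripts and of 79.8% of all protein-coding genes tested. The 7 genes that passed the filter and hold a stem-loop had annotated tails of 330 to 4884 bases (Hist1h4i shortest, Hist1h1d longest). The 16 below the filter with a stem-loop had tails of 11 to 2010 bases, with a median of 367. Which end was used in these cells was not measured.

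**Figure D1:**
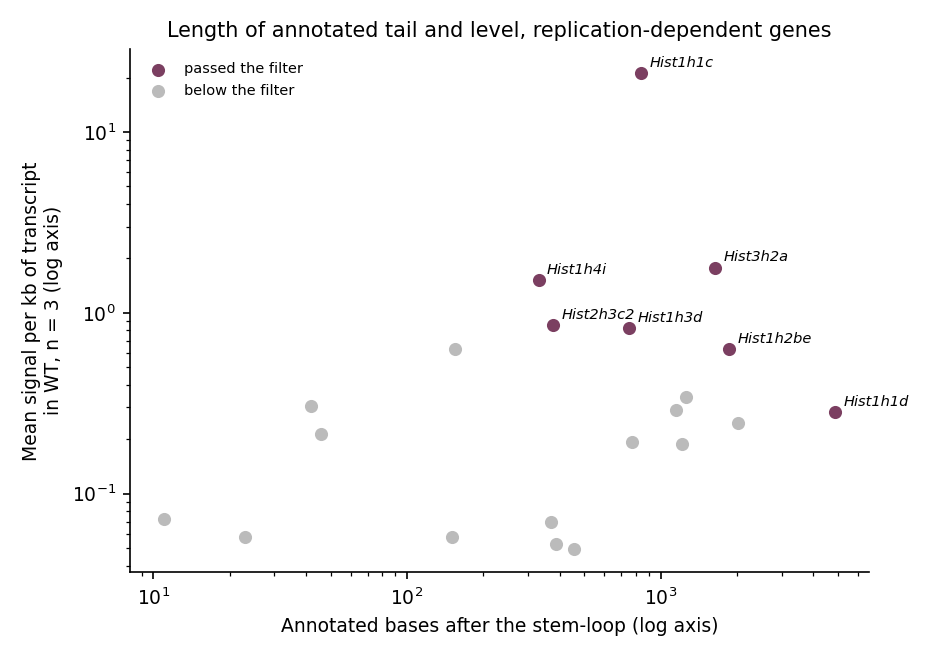
The 21 replication-dependent genes listed in TKO against WT that hold a stem-loop, by the annotated bases behind it (x axis, log) and the mean signal per kb of transcript in the 3 WT libraries (y axis, log). Genes that passed the filter are purple and named; Hist1h1c, at 21.2 per kb, stands above the rest, and none of the named genes has a tail under 330 bases.

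miR-26 pairs with mRNAs through its seed, bases 2 to 8, in capitals in the mature sequences from RefSeq (GRCm38.p6), which share that seed.
miR-26a-5p: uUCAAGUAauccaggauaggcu
miR-26b-5p: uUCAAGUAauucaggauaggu
A match to bases 2 to 8 (TACTTGA), or to bases 2 to 7 followed by A (ACTTGAA), was found in the 3' UTR of 1 listed replication-dependent gene, Hist1h2bc, and of 0 replacement genes, against 21.6% of the protein-coding genes tested. Many annotated histone 3' UTRs are short, but some are long, such as 4931 bases in Hist1h1d and 2245 in H3f3a. The share was not adjusted for length. The site in Hist1h2bc lies at chr13:23692677-23692693 on the plus strand, 515 bases behind the stop codon. It is shown because it is the only such match among the listed histone genes, with the match in capitals.
Hist1h2bc: ttttgACTTGAAgggaa

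Promoters of 75 histone genes could be matched to RefSeq by symbol or by a synonym that only a single RefSeq gene has, from 250 bases before to 50 behind the start. CCAAT, on either strand, stood in 61 of them and in 37.4% of all 32851 promoters in the table. TATAAA stood in 36, against 13.6% of all, and AAACACA, a motif known from H1 gene promoters, in 10, against 7.18% of all. Of the 75 these are 81.3%, 48.0% and 13.3%. The 75 pool both kinds and include genes not listed here. Among the replacement genes only H3f3b had TATAAA and only H3f3a AAACACA. The 10 also held H2A and H2B genes, such as Hist1h2aa and Hist1h2ba. Windows of neighbouring genes can overlap, as those of Hist1h2ad and Hist1h2bf do. Each motif was counted on both strands, none overlaps another in the promoters shown, and a match is not a measured binding site. The promoters of Hist1h1c (chr13:23738557-23738856, plus strand) and H2afz (chr3:137864237-137864536, plus strand) are shown, a replication-dependent gene and a replacement gene that both rose in TKO. Capitals mark CCAAT or its complement ATTGG, 1 in Hist1h1c and 3 in H2afz, and AAACACA, 1 in Hist1h1c.
Hist1h1c: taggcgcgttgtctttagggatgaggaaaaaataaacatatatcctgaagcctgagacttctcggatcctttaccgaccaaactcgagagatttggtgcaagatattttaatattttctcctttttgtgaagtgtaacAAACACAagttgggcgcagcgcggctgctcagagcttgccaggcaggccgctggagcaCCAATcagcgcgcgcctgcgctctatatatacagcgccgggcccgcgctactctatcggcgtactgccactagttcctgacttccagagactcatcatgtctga
H2afz: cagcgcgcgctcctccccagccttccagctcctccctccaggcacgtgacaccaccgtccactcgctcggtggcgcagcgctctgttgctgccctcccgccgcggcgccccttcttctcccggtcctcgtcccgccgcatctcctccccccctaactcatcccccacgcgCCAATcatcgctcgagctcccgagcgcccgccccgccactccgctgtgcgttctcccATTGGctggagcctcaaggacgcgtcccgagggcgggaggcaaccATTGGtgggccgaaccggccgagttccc

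In TKO against WT, 4 of the 9 replication-dependent genes that passed the filter rose and 0 fell, and the other 5 did not pass the test. Of all genes tested 23.2% rose and 22.7% fell by the same limma test. The median log2 fold change of the 9 was 0.18, against -0.00085 over all genes tested. The 4 were Hist1h1c, Hist1h4i, Hist2h3c2 and Hist3h2a, which encode an H1, an H4, an H3 and an H2A. Hist2h3c2 passed the filter only through its TKO values, so the count of 4 is a description. Without TKO replicate 1, where these genes were highest, 3 were called, all but Hist3h2a. Among the replacement genes 2 of 10 rose (H2afz and H2afj), 2 fell (H3f3b and H2afy2) and 6 did not pass, with a median of 0.11. With fold changes scaled by library size alone the median gene stood at 0.11 and 66.7% of the calls over all genes were higher in TKO, against 50.6% here. The 4 replication-dependent and the 4 replacement calls held under that scaling. edgeR on the recovered reads called 5769 genes, among them the same 4 and 4.

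Hist1h1c encodes the linker histone H1.2. Per kb of transcript its mean signal was 51.5 in TKO and 21.2 in WT, and that of Hist1h2bc, the next gene by this level, 27.3 in TKO and 27.9 in WT. The signal of Hist1h1c was 112, 69.9 and 59.2 in TKO, against 27.04, 32.5 and 39.8 in WT. All 3 TKO libraries lay above all WT libraries, replicate 1 highest. The mean signal was 80.4 ± 27.9 in TKO and 33.1 ± 6.39 in WT (SD, n = 3 each), a log2 fold change of 1.22 ± 0.25 (SE, limma adjusted p = 0.0080). Hist1h1c was called under every alternative run, and its change was 0.96 to 1.41 with any 1 library left out. Hist1h1d, which encodes the linker histone H1.3, read 3.47, 1.98 and 1.86 in TKO, against 2.08, 2.30 and 1.91 in WT. Only TKO replicate 1 stood above WT, and the change was 0.12 ± 0.19 (SE, limma adjusted p = 0.623). Without that library it was -0.08.

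Hist1h4i encodes histone H4, whose protein is the same from all its genes. It read 4.25, 2.84 and 2.87 in TKO, against 1.24, 1.10 and 0.981 in WT. All TKO libraries were higher, and the groups did not overlap. The mean was 3.32 ± 0.804 in TKO and 1.11 ± 0.128 in WT (SD, n = 3 each). Hist1h4i changed by 1.02 ± 0.15 (SE, limma adjusted p = 0.0024) on the log2 scale and was called under every alternative run. Hist2h3c2 encodes an H3 protein and read 3.79, 1.78 and 2.11 in TKO, against 0.759, 0.950 and 0.908 in WT. The groups did not overlap and the change was 0.89 ± 0.21 (SE, limma adjusted p = 0.014). No WT library reached the signal of 1 that the filter asks, so this gene passed the filter only through TKO and had to differ. Its call ended without WT replicate 1 (0.84, adjusted p = 0.054 in limma) and with the trend of transcript length and GC content removed (0.45, adjusted p = 0.173 in limma). Hist3h2a, an H2A gene outside the large clusters, read 5.19, 4.94 and 4.63 in TKO, against 3.85, 3.82 and 3.78 in WT, a small difference without overlap. The change was 0.30 ± 0.09 (SE, limma adjusted p = 0.028). It was lost when any library but TKO replicate 3 was left out (limma adjusted p from 0.0565 to 0.0955) and without the filter (0.30, adjusted p = 0.076 in limma). Hist3h2a shares its strand with the overlapping gene Trim17.

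Among the 5 that did not pass was Hist1h2bc, an H2B gene and the only one with a miR-26 seed match. It read 44.8, 27.2 and 22.7 in TKO, against 27.96, 33.5 and 35.3 in WT. The groups overlapped, with TKO replicate 1 highest of all and TKO replicates 2 and 3 lowest, and the change was -0.08 ± 0.24 (SE, limma adjusted p = 0.807). Scaled by library size it stood at 0.04. Hist2h2be, another H2B gene, read 2.47, 2.95 and 2.59 in TKO, against 2.61, 2.13 and 2.397 in WT, a change of 0.12 ± 0.11 (SE, limma adjusted p = 0.40). Hist1h2be, also an H2B gene, which overlaps Hist1h1e on the same strand, read 3.14, 1.45 and 1.46 in TKO, against 1.62, 1.72 and 1.398 in WT, a change of 0.18 ± 0.22 (SE, limma adjusted p = 0.527). In the H3 gene Hist1h3d the values were 1.997, 0.884 and 0.975 in TKO, against 1.02, 1.05 and 1.02 in WT, a change of 0.14 ± 0.19 (SE, limma adjusted p = 0.587). In both Hist1h2be and Hist1h3d the highest library was TKO replicate 1, and the other TKO libraries lay within or below WT.

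**Figure D2:**
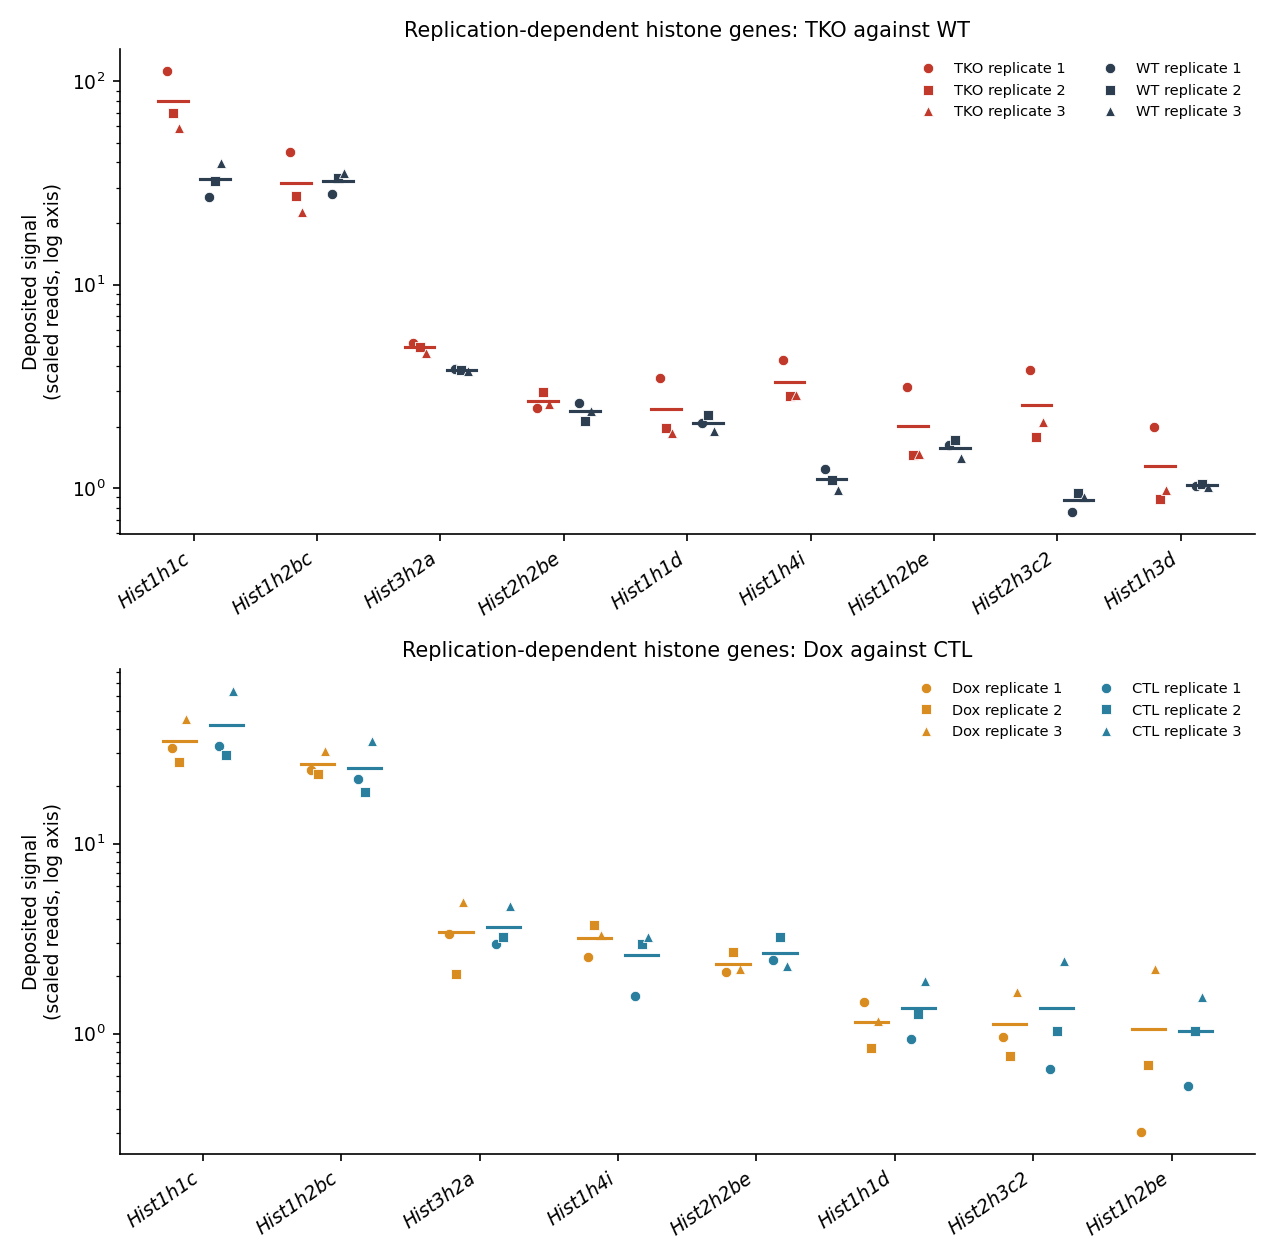
Deposited signal of the replication-dependent genes that passed the filter, by library (points, 1 marker shape per replicate number) with group means (bars), on a log axis. In TKO against WT (top) Hist1h1c, Hist1h4i, Hist2h3c2 and Hist3h2a show groups that do not overlap; in Dox against CTL (bottom) all 8 overlap, and replicate 3 of either group is often highest.

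The other 18 replication-dependent genes listed in TKO against WT were below the filter, at a signal of 0.017 to 1.62 and 1 to 127 recovered reads per library. Their groups did not overlap in 7, all higher in TKO, and in 0 lower in TKO. Among all genes below the filter the same was seen in 18.7% higher and 9.06% lower in TKO. The mean was higher in TKO in 15 of the 18. The same share over all genes below the filter was not computed, so this count is only a description. The 7 were Hist1h1b, Hist1h4h, Hist1h4c, Hist1h4j, Hist1h2bg, Hist1h2ad and Hist1h2ac. Hist1h4h, an H4 gene, had 50, 25 and 30 recovered reads in TKO, against 1, 5 and 11 in WT. Hist1h1b, the gene of the linker histone H1.5, had 33, 21 and 28 recovered reads in TKO, against 6, 6 and 8 in WT. The authors' deposited table gave 5 replication-dependent genes a false discovery rate under 0.05, all higher in TKO: Hist1h1c, Hist1h4i and Hist2h3c2 with Hist1h1b (0.0135) and Hist1h4h (0.0176), but not Hist3h2a (0.498). The same authors' deposited table has 4 of the 11 replacement genes under 0.05, H2afz and H2afj higher and H3f3b and H2afy2 lower. For Dox against CTL the authors' deposited table has 0 histone genes under 0.05.

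Within the TKO group the replication-dependent genes were not evenly spread over libraries. TKO replicate 1 was the highest TKO library in 25 of the 27 genes listed, against 31.96% of all genes listed. Their summed signal was 190.0, 118 and 103 in TKO, against 71.2, 82.8 and 91.0 in WT, without overlap. Hist1h1c made up 58.96%, 59.2% and 57.6% of it in TKO and 38.0%, 39.2% and 43.7% in WT. The sums of TKO replicates 2 and 3 were also above all WT sums. Without Hist1h1c the sums were 78.0, 48.2 and 43.6 in TKO, against 44.1, 50.3 and 51.2 in WT, and then overlapped. Without both Hist1h1c and Hist1h2bc they were 33.2, 20.9 and 20.9 in TKO, against 16.2, 16.8 and 15.96 in WT, with all TKO libraries higher. Replacement genes summed to 654, 733 and 682 in TKO, against 707, 700.4 and 742 in WT, also with overlap. TKO replicate 1 was also the library with the least signal of epithelial markers, 0.355 in sum. Among the TKO libraries it had the lowest endothelial (82.2) and mesothelial (15.8) sums too, and the highest Schwann cell sum (13.9). Adipocyte markers summed to 1053, 1806 and 893 in TKO, against 1320.2, 1119 and 1578 in WT, with overlap, and TKO replicate 1 was neither the highest nor the lowest. The part of these cells in the histone values was not tested.

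**Figure D3:**
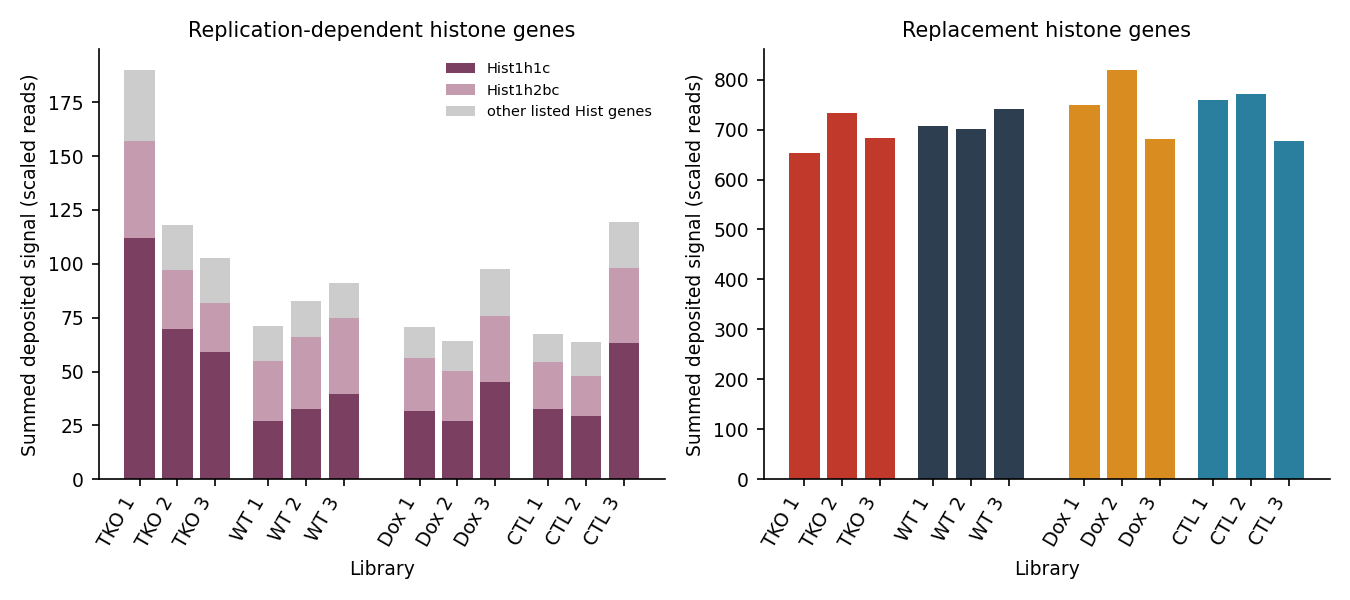
Summed deposited signal of the listed histone genes by library (bars). Left, replication-dependent genes, split into Hist1h1c, Hist1h2bc and the others; TKO replicate 1 stands at 190.0 and the WT libraries at 71.2 to 91.0. Right, replacement genes, which lie between 654 and 820 in all 12 libraries.

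The name rule takes no H2B or H4 gene as a replacement gene, so all their signal counted as replication-dependent by definition. For the other histones the share differed. Of the summed H1 signal 54.7%, 35.4% and 36.1% came from replication-dependent genes in TKO, against 25.3%, 28.2% and 28.3% in WT, and the rest from H1f0 and H1fx. For H3 the same share was at most 1.71% in any library of TKO or WT and at most 1.06% in any of Dox or CTL, and H3f3a and H3f3b carried nearly all H3 signal. For H2A it lay between 2.23% and 3.32% in TKO and between 2.31% and 2.45% in WT. Per kb of transcript, the group means of the tested replication-dependent genes lay between 0.282 and 51.5 in TKO and WT, and those of the tested replacement genes between 2.17 and 132.

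The linker histone variants among the replacement genes did not pass in TKO against WT. H1f0, the variant known from differentiated cells, read 94.5, 129.7 and 107 in TKO, against 85.7, 88.01 and 104 in WT, which overlapped, a change of 0.24 ± 0.13 (SE, limma adjusted p = 0.176). H1fx, which encodes the variant H1X, read 2.75, 3.18 and 2.75 in TKO, against 1.94, 2.85 and 3.14 in WT, a change of 0.11 ± 0.15 (SE, limma adjusted p = 0.587). Removing the trend of length and GC content put H1fx at -0.38, adjusted p = 0.012 in limma, the other direction.

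H2A.Z, a variant found at promoters, is encoded by H2afz and H2afv. H2afz read 71.1, 93.1 and 99.2 in TKO, against 41.7, 48.9 and 54.5 in WT. Every TKO library lay above every WT library. H2afz averaged 87.8 ± 14.8 in TKO and 48.4 ± 6.46 in WT (SD, n = 3 each), and the change was 0.84 ± 0.15 (SE, limma adjusted p = 0.0049). H2afv read 20.9, 26.7 and 19.5 in TKO, against 21.7, 18.9 and 20.4 in WT, which overlapped, a change of 0.12 ± 0.13 (SE, limma adjusted p = 0.462). Of the 50-base stretches of H2afz, 0.696 also occur in other annotated genes, so its count is uncertain; in H2afv the share is 0.

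H2afj encodes H2A.J, a variant known from senescent cells, and read 14.8, 11.2 and 10.8 in TKO, against 3.85, 5.93 and 6.32 in WT. No WT library reached the lowest TKO library. H2afj averaged 12.3 ± 2.17 in TKO and 5.37 ± 1.33 in WT (SD, n = 3 each), and the change was 1.07 ± 0.19 (SE, limma adjusted p = 0.0048). It lies on chromosome 6 at 136808244 to 136810074, beside Hist4h4. H2afx encodes H2A.X, which is phosphorylated at DNA breaks, and read 19.01, 21.8 and 22.02 in TKO, against 14.6, 18.7 and 18.7 in WT. The groups did not overlap, but the change, 0.27 ± 0.12 (SE, limma adjusted p = 0.108), did not pass. Removing the trend put H2afx at -0.15.

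MacroH2A, a large H2A variant with an added domain, is encoded by H2afy2 and H2afy. H2afy2 (macroH2A2) read 23.3, 26.9 and 25.2 in TKO, against 33.8, 33.05 and 33.8 in WT, lower in all 3 TKO libraries. It averaged 25.1 ± 1.79 in TKO and 33.5 ± 0.426 in WT (SD, n = 3 each), a change of -0.40 ± 0.07 (SE, limma adjusted p = 0.0047). It overlaps Aifm2 on the other strand, and the strand setting of the counting is not given in the sources used here. H2afy (macroH2A1) read 63.6, 72.2 and 76.4 in TKO, against 67.0, 67.7 and 66.1 in WT, with overlap and a change of 0.07 ± 0.08 (SE, limma adjusted p = 0.472). With the trend removed it stood at -0.12. The difference between the changes of H2afy2 and H2afy was not tested.

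H3f3a and H3f3b encode the same protein, the variant H3.3. H3f3b read 267, 259 and 244 in TKO, against 344, 326 and 325 in WT, lower in each TKO library. H3f3b averaged 257 ± 11.5 in TKO and 331 ± 10.7 in WT (SD, n = 3 each), a change of -0.37 ± 0.06 (SE, limma adjusted p = 0.0044). H3f3a read 76.4, 88.4 and 74.5 in TKO, against 92.4, 90.02 and 109.8 in WT. It was also lower without overlap, by a change of -0.28 ± 0.10 (SE, limma adjusted p = 0.063), which did not pass; DESeq2 on the recovered reads called it (-0.29, adjusted p = 0.039). The antisense RNA H3f3aos was below the filter, with 17, 17 and 29 recovered reads in TKO, against 17, 18 and 20 in WT. Recovered reads are not scaled for depth, which was higher in TKO. The signal of H3f3aos was 0.216, 0.215 and 0.321 in TKO, against 0.300, 0.300 and 0.363 in WT, with overlap.

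**Figure D4:**
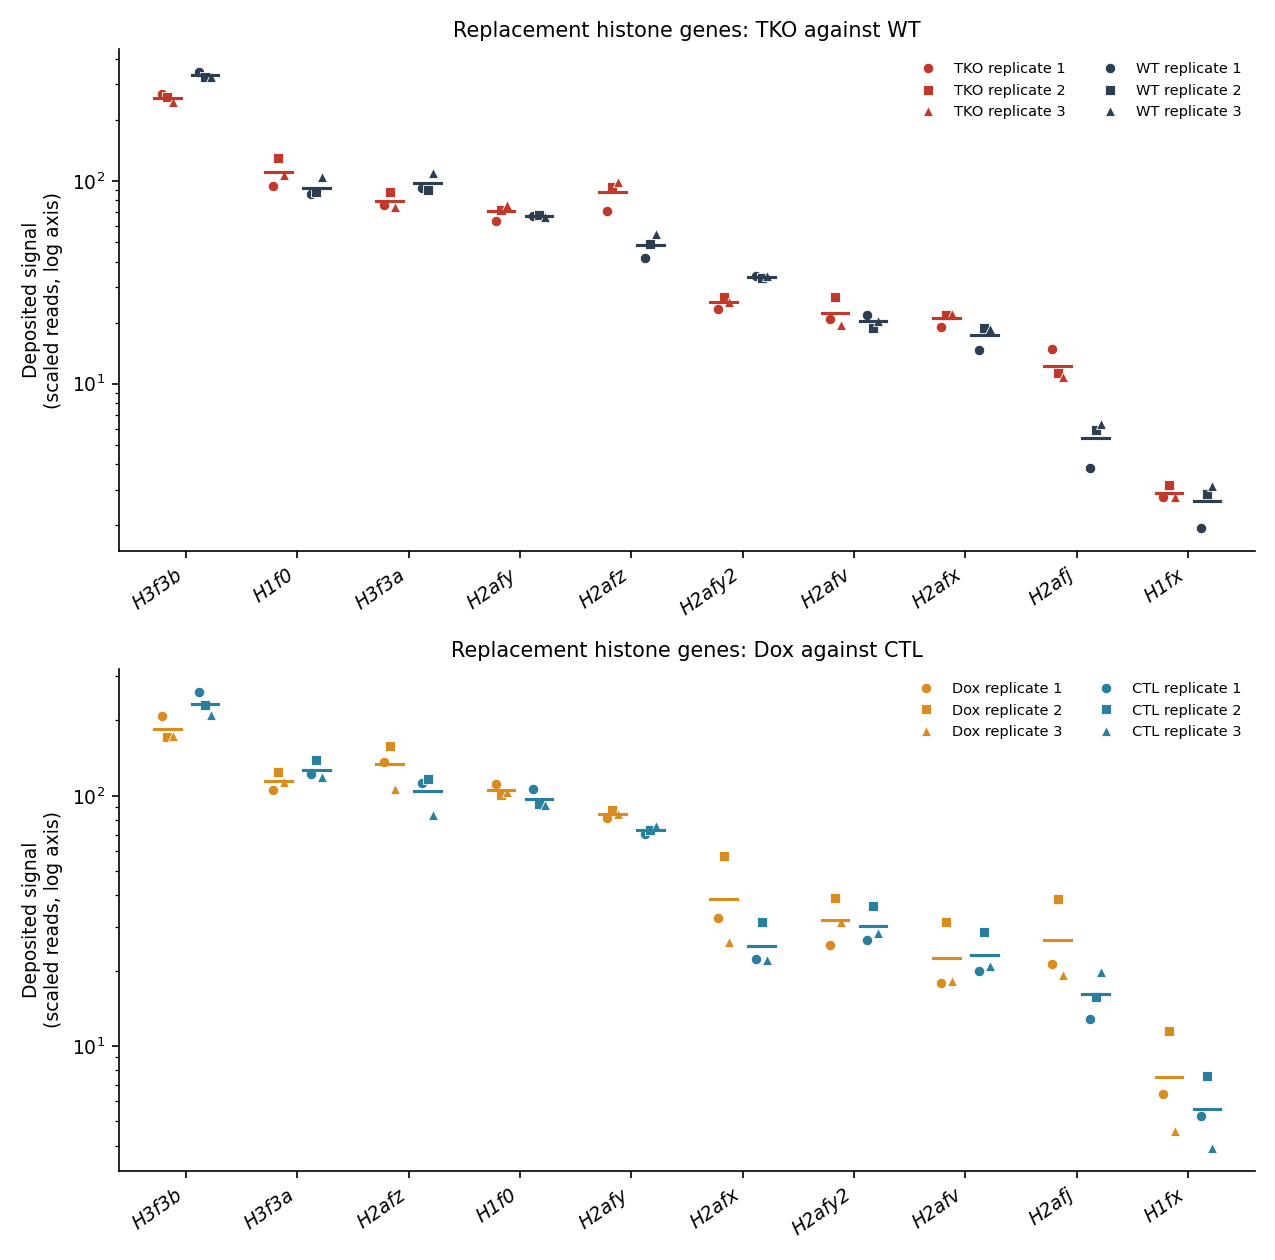
Deposited signal of the 10 replacement genes that passed the filter, by library (points, 1 marker shape per replicate number) with group means (bars), on a log axis. In TKO against WT (top) H2afz and H2afj lie higher and H3f3b and H2afy2 lower in TKO without overlap; in Dox against CTL (bottom) H3f3b lies lower and H2afy higher in Dox without overlap, and Dox replicate 2 is the highest Dox library in many genes.

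In Dox against CTL limma called 0 genes higher and 0 lower, 0% of the 12634 tested, and so 0 histone genes. At an unadjusted p under 0.05 there were 748 genes, with 0 replication-dependent and 2 replacement genes (H3f3b and H2afy) among them. On the recovered reads edgeR called 0 genes and DESeq2 99, of which 0 were histone genes. Libraries with the same replicate number deviated together, so a fit with the replicate number as a block was also run. It called 0.562% of the genes higher and 1.54% lower in Dox. In it 0 of the 8 replication-dependent genes tested passed, with a median log2 fold change of -0.10 against 0.01 over all genes. Of the 10 replacement genes H2afz rose, H3f3b fell and 8 did not pass, with a median of 0.16.

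Hist1h1c read 31.9, 26.9 and 45.1 in Dox, against 32.8, 29.3 and 63.4 in CTL. CTL replicate 3 was highest and the groups overlapped, with a change of -0.21 ± 0.10 (SE, paired limma adjusted p = 0.315). Hist1h2bc, the gene with the seed match, read 24.5, 23.3 and 30.7 in Dox, against 21.8, 18.6 and 34.5 in CTL, again with replicate 3 highest in both groups, a change of 0.10 ± 0.11 (SE, paired limma adjusted p = 0.691). Hist1h4i read 2.52, 3.72 and 3.30 in Dox, against 1.58, 2.94 and 3.21 in CTL, a change of 0.25 ± 0.14 (SE, paired limma adjusted p = 0.398). All 3 overlapped between the groups. Hist2h3c2 read 0.956, 0.760 and 1.65 in Dox, against 0.648, 1.03 and 2.405 in CTL, a change of -0.11 ± 0.16 (SE, paired limma adjusted p = 0.799). Hist3h2a read 3.32, 2.05 and 4.91 in Dox, against 2.96, 3.22 and 4.67 in CTL, a change of -0.09 ± 0.15 (SE, paired limma adjusted p = 0.809). In these too the highest library was a replicate 3. In Hist2h2be the values were 2.11, 2.698 and 2.17 in Dox, against 2.43, 3.22 and 2.26 in CTL. Hist1h1d had 1.46, 0.836 and 1.17 in Dox, against 0.932, 1.26 and 1.89 in CTL. Hist1h2be had 0.302, 0.684 and 2.17 in Dox, against 0.527, 1.03 and 1.56 in CTL. These 3 also overlapped, with changes of -0.12, -0.12 and -0.06 (paired limma adjusted p from 0.68 to 0.90).

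The 13 replication-dependent genes below the filter had a signal of 0.038 to 1.21 and 1 to 30 recovered reads. Their groups did not overlap in 1, Hist1h2bg, an H2B gene with 13, 22 and 30 recovered reads in Dox, against 8, 9 and 13 in CTL, and in 0 lower in Dox. Among all genes below the filter the same was seen in 3.32% higher and 4.65% lower in Dox. Hist1h2bg was also 1 of the 7 in TKO against WT, with 106, 36 and 48 recovered reads in TKO, against 19, 27 and 21 in WT. Scaled for depth, its signal was 1.348, 0.454 and 0.532 in TKO, against 0.335, 0.450 and 0.381 in WT. Of the 50-base stretches of Hist1h2bg, 0.497 are found in other genes too.

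Replicate 3 stood out in both groups. CTL replicate 3 was the highest CTL library in 16 of the 21 replication-dependent genes listed, against 34.8% of all genes listed, and Dox replicate 3 the highest Dox library in 15, against 32.3%. The summed signal was 70.5, 64.4 and 97.8 in Dox, against 67.4, 63.8 and 119 in CTL. Replicate 3 in both groups had the lowest sums of epithelial, endothelial, macrophage and adipocyte markers, and the highest sum of Schwann cell markers. Replacement genes summed to 749, 820 and 681 in Dox, against 759, 771 and 676 in CTL. Dox replicate 2 was the highest Dox library in 9 of the 12, against 38.4% of all genes listed. Within each of the 4 groups, replication-dependent genes summed highest in TKO replicate 1, WT replicate 3, Dox replicate 3 and CTL replicate 3. Each of these libraries also had the lowest sum of epithelial markers, of endothelial markers and of the G2/M and mitosis list in its group. Other lists did not follow in all groups. The G1/S and DNA replication list was lowest in Dox replicate 1 (1133, against 1173 in Dox replicate 3). Macrophage and adipocyte markers were lowest in TKO replicate 3 and WT replicate 2. With 3 libraries per group this is a description. The part of epithelial, endothelial or dividing cells in the histone values was not tested.

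H2afz read 137, 158 and 106 in Dox, against 112, 117 and 83.5 in CTL. The groups overlapped, but each Dox library was above the CTL library of its number. The paired change was 0.35 ± 0.07 (SE, paired limma adjusted p = 0.044), and without pairing it had an SE of 0.18 (limma adjusted p = 0.885). H3f3b read 209, 171 and 173 in Dox, against 260.1, 230.1 and 211 in CTL, lower in every Dox library, with a paired change of -0.34 ± 0.07 (SE, paired limma adjusted p = 0.046) and an unpaired limma adjusted p of 0.766. Without the pair numbered 1 neither passed (paired limma adjusted p = 0.254 for H2afz and 0.351 for H3f3b). Without the pair numbered 2 or 3 both passed. H2afx read 32.5, 57.3 and 26.04 in Dox, against 22.2, 31.2 and 22.1 in CTL, with Dox replicate 2 highest. Its change, 0.54 ± 0.12 (SE, paired limma adjusted p = 0.052), did not pass.

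H2afj read 21.3, 38.7 and 19.3 in Dox, against 12.8, 15.7 and 19.8 in CTL. Dox replicate 2 again stood highest, the groups overlapped, and the change was 0.64 ± 0.19 (SE, paired limma adjusted p = 0.131). H2afy read 81.8, 87.6 and 84.2 in Dox, against 70.4, 72.9 and 75.6 in CTL. It was higher in all Dox libraries without overlap, and its change of 0.21 ± 0.07 (SE, paired limma adjusted p = 0.179) did not pass; with the length and GC trend also removed H2afx and H2afy passed (paired limma adjusted p = 0.012 and 0.042). H2afy2 read 25.4, 38.9 and 31.4 in Dox, against 26.5, 36.1 and 28.3 in CTL, with overlap and a change of 0.07 ± 0.09 (SE, paired limma adjusted p = 0.761). H2afv read 17.9, 31.2 and 18.2 in Dox, against 19.98, 28.5 and 20.9 in CTL, again with overlap, a change of -0.07 ± 0.10 (SE, paired limma adjusted p = 0.767). In H3f3a the values were 105, 125 and 114 in Dox, against 122, 139 and 119 in CTL, a change of -0.14 ± 0.07 (SE, paired limma adjusted p = 0.355). Neither linker variant passed. H1f0 read 111, 100.4 and 103 in Dox, against 106, 92.8 and 91.9 in CTL, a change of 0.12 ± 0.07 (SE, paired limma adjusted p = 0.453). H1fx read 6.44, 11.5 and 4.59 in Dox, against 5.27, 7.62 and 3.91 in CTL, with Dox replicate 2 highest and a change of 0.32 ± 0.12 (SE, paired limma adjusted p = 0.212). The remaining members, H3f3aos and H3f3a-ps1, had 1 to 13 recovered reads per library.

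**Figure D5:**
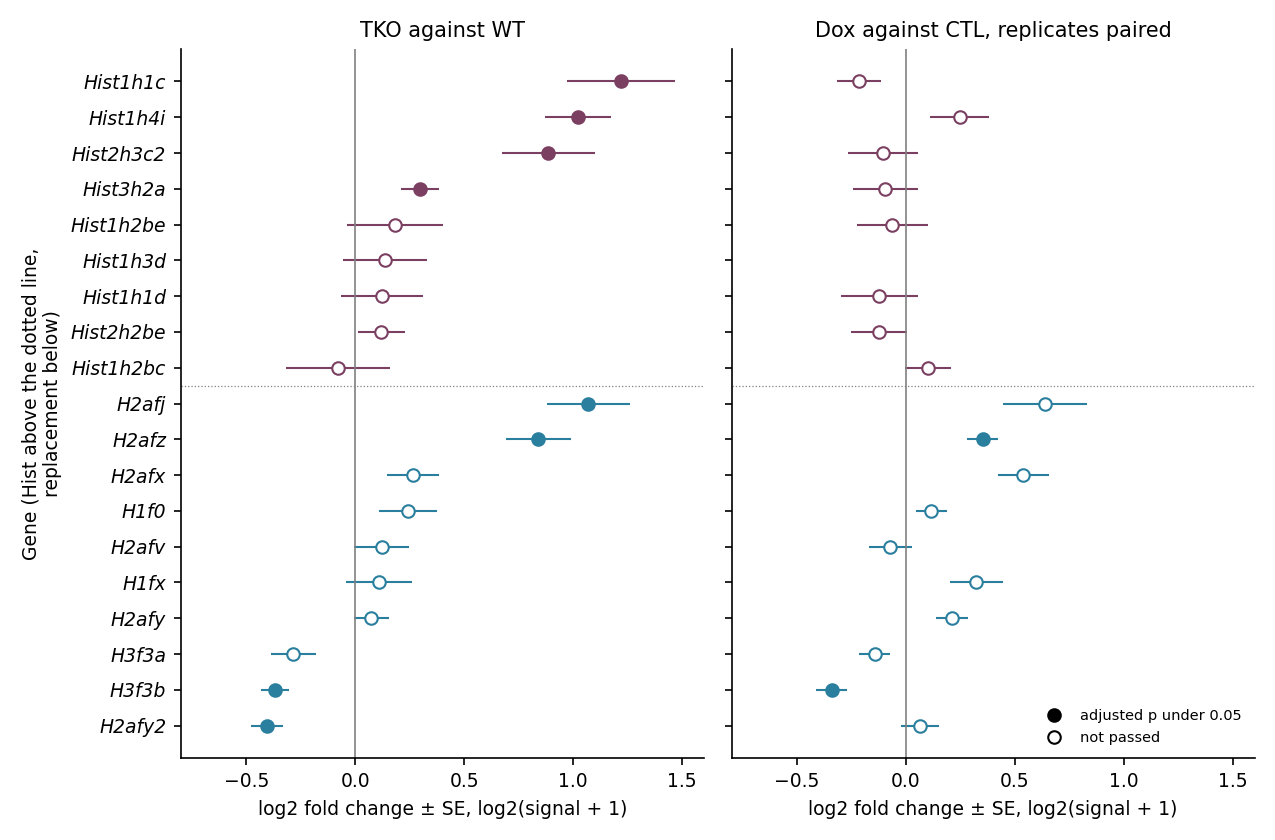
Log2 fold change of each tested histone gene (points) with its standard error (bars), TKO against WT on the left and Dox against CTL from the fit with replicates paired on the right. Filled points passed an adjusted p of 0.05. H2afz lies to the right and H3f3b to the left of 0 in both panels, and Hist1h1c at 1.22 on the left and -0.21 on the right.

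The 2 comparisons share no libraries. H2afz was higher and H3f3b lower in both, with log2 fold changes of 0.84 and -0.37 in TKO, and of 0.35 and -0.34 in Dox. In Dox they passed only with replicates paired (paired limma adjusted p = 0.044 and 0.046, limma 0.885 and 0.766 unpaired). Neither passed there without the pair numbered 1. One comparison removes miR-26 and the other adds miR-26a. Hist1h1c was at 1.22 in TKO and at -0.21 in Dox, where it did not pass. Hist1h4i was at 1.02 in TKO and 0.25 in Dox. H2afj was at 1.07 in TKO and 0.64 in Dox, and neither gene passed in Dox. The tables were normalized apart, so levels are not compared between them.

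Many counts of these genes rest on sequence that other genes share. In 18 of the 29 listed replication-dependent genes and 3 of the 12 replacement genes, more than 0.2 of the 50-base stretches occur elsewhere, so reads of 75 bases could be split between copies and those counts are uncertain. The share was 0.635 in Hist2h3c2, 0.315 in Hist3h2a, 0.306 in Hist1h2bc, 0.303 in H3f3a and 0.289 in Hist1h4i. It was lower in Hist1h1c (0.0854), H2afj (0.0718), H3f3b (0.0840) and H2afy2 (0.154). Of the listed replication-dependent genes 25 lie on chromosome 13, 3 on chromosome 3 and 1 on chromosome 11.

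Genes of a list on the 3' ends of histone mRNAs, which also holds the transcription activator Npat and the decay factor Lsm1, moved in both directions in TKO. Of 20 tested, 6 rose and 8 fell, with a median log2 fold change of -0.09 (all genes -0.00085), where 23.2% of all genes rose and 22.7% fell. Npat, which activates histone gene transcription, read 48.5, 42.5 and 53.8 in TKO, against 81.8, 80.7 and 78.2 in WT. It was lower in every TKO library, with a change of -0.73 ± 0.09 (SE, limma adjusted p = 0.0014). Casp8ap2 (FLASH), its partner at histone genes, read 44.99, 36.1 and 52.03 in TKO, against 66.7, 60.6 and 57.96 in WT, a change of -0.48 ± 0.14 (SE, limma adjusted p = 0.026), which no longer passed when scaled by library size (limma adjusted p = 0.055) or without the length and GC trend (0.093). Slbp, the stem-loop binding protein, read 30.9, 32.8 and 35.3 in TKO, against 25.01, 27.05 and 27.9 in WT, higher without overlap, with a change of 0.30 ± 0.08 (SE, limma adjusted p = 0.020) that no longer passed without that trend (limma adjusted p = 0.065).

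Lsm11, a protein of the U7 snRNP, read 12.7, 11.8 and 14.2 in TKO, against 9.04, 8.82 and 9.92 in WT, a rise of 0.44 ± 0.09 (SE, limma adjusted p = 0.0097). Its partner Lsm10 read 12.02, 12.6 and 11.8 in TKO, against 9.92, 10.8 and 11.6 in WT, a change of 0.16 ± 0.08 (SE, limma adjusted p = 0.164). Zfp473, another U7-linked factor, read 0.979, 1.31 and 1.297 in TKO, against 1.04, 0.850 and 1.22 in WT, a change of 0.11 ± 0.13 (SE, limma adjusted p = 0.514). The smallest p-values of the list were those of Fip1l1, part of the cleavage and polyadenylation complex, at -0.99 ± 0.07 (SE, limma adjusted p = 0.00027), and of Npat. Next came Zcchc11, a terminal uridyltransferase, at -0.84 ± 0.12 (SE, limma adjusted p = 0.0024) and Lsm1, part of the decay machinery, at 0.71 ± 0.11 (SE, limma adjusted p = 0.0026). Fip1l1 read 71.95, 78.9 and 74.9 in TKO, against 145, 161 and 146 in WT. In Dox against CTL 0 of 19 tested passed in either fit (smallest adjusted p 0.854 in limma and 0.273 in paired limma). There Npat was at -0.12 ± 0.12 (SE, limma adjusted p = 0.974) and Slbp at 0.07 ± 0.11 (SE, limma adjusted p = 0.992). Casp8ap2, Lsm10 and Lsm11 were at -0.05, 0.07 and 0.13, and the smallest p-values were those of Ncbp1 (0.18), Lsm1 (0.19), Cpsf2 (-0.14) and Zcchc11 (-0.15).

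Of 30 histone chaperones and exchange factors tested, 6 rose and 10 fell in TKO, with a median of -0.12, beside 23.2% and 22.7% of all genes. Rbbp4, a subunit of the chaperone CAF-1, read 200.4, 221 and 226 in TKO, against 141, 141 and 138 in WT, higher in each TKO library, with a change of 0.62 ± 0.07 (SE, limma adjusted p = 0.00080). Its count is uncertain, with 0.338 of its stretches shared. Dek, a chaperone of H3.3, read 88.1, 100.1 and 104 in TKO, against 156, 154 and 146 in WT, lower in TKO, a change of -0.64 ± 0.08 (SE, limma adjusted p = 0.0013). Srcap, the motor of a complex that loads H2A.Z, was at -1.25 ± 0.18 (SE, limma adjusted p = 0.0024), with 0.904 of its stretches shared. Nap1l4, a chaperone of H2A and H2B, was at 0.31 ± 0.05 (SE, limma adjusted p = 0.0033). In Dox against CTL 0 of 30 passed (smallest adjusted p 0.794 in limma and 0.108 in paired limma). The smallest p-values there were those of Znhit1 (-0.26), Mcm2 (0.31), Ruvbl1 (0.22) and Ruvbl2 (0.25).

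Of 28 genes of G1/S and DNA replication, 4 rose and 2 fell in TKO, with a median of 0.05, beside 23.2% and 22.7% of all genes. Tk1, thymidine kinase, was at 0.80 ± 0.12 (SE, limma adjusted p = 0.0028) and Gins2, of the replicative helicase, at 0.32 ± 0.08 (SE, limma adjusted p = 0.020), with 0.703 of its stretches shared. Ccne2 (cyclin E2) was at -0.64 ± 0.11 (SE, limma adjusted p = 0.0048) and Cdc6, a loader of the helicase, at -0.53 ± 0.15 (SE, limma adjusted p = 0.024). Cdc6 no longer passed when scaled by library size (limma adjusted p = 0.066). Pcna, the clamp of the replication polymerases, read 60.5, 69.4 and 75.4 in TKO, against 58.8, 57.9 and 57.1 in WT. It was higher without overlap, but its change of 0.23 ± 0.09 (SE, limma adjusted p = 0.070) did not pass, and 0.318 of its stretches are shared. The summed signal of this list overlapped, at 1028, 1178 and 1319.7 in TKO, against 1173, 1175 and 1127 in WT.

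Of 22 genes of G2/M and mitosis, 3 rose and 8 fell in TKO, with a median of -0.20, beside 23.2% and 22.7% of all genes. Mki67, the Ki-67 protein of dividing cells, read 167, 188 and 247 in TKO, against 439.5, 439.9 and 382 in WT. All TKO libraries were lower, by a change of -1.08 ± 0.15 (SE, limma adjusted p = 0.0019). Cdc20, an activator of the anaphase-promoting complex, read 36.2, 44.3 and 46.96 in TKO, against 19.05, 21.5 and 21.7 in WT, a rise of 0.99 ± 0.11 (SE, limma adjusted p = 0.00096). Cdk1, the mitotic kinase, was at 0.52 ± 0.11 (SE, limma adjusted p = 0.0084) and Tpx2, a spindle factor, at -0.63 ± 0.12 (SE, limma adjusted p = 0.0063). The list summed to 1202, 1437 and 1669.7 in TKO, against 1894, 1881 and 1716 in WT, and TKO replicate 1, highest in replication-dependent histones, was the lowest.

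In Dox against CTL 0 of the 28 and 0 of the 22 passed in either fit. The medians were 0.13 and -0.02, against 0.01 over all genes. The smallest p-values were those of Mcm3 (0.34), Mcm2 (0.31), Ccne1 (-0.22) and Cdc6 (0.30) in the replication list and of Cenpf (-0.20), Cenpe (-0.22), Aurkb (0.17) and Ccnb1 (-0.18) in the mitosis list. Mki67 read 198, 243 and 182 in Dox, against 217, 282 and 156 in CTL, with overlap. Pcna read 73.9, 91.1 and 73.7 in Dox, against 77.5, 77.4 and 62.8 in CTL, also with overlap. The G2/M and mitosis list summed to 1268, 1608 and 1162 in Dox, against 1344, 1752 and 1067 in CTL, lowest in replicate 3 of each group, where the replication-dependent histone genes were highest.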

How the data were processed

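Messenger RNA of 12 libraries in 4 groups of 3 was measured with a stranded kit that selects mRNA and 75-base single reads, per the labels' protocols. Per the submitters' processing notes, TopHat2 2.0.12, featureCounts 1.4.6, edgeR 3.8.6 and StringTie 1.2.2 were used with GRCm38 (mm10); the strand setting of the counting is not given in the sources used here. The deposited signal is read counts that the authors brought to one library size and multiplied by a factor for each library. Dividing each library by its smallest step gave whole reads for 100% of values (tolerance 0.1 reads). The tables also hold the authors' own log2 fold changes, log2 levels, likelihood ratio scores, p-values and false discovery rates, of which the report uses the false discovery rates of a few members and the direction of their fold changes. Per-sample columns left unmapped were 0.

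A pseudocount of 1 was added, and genes at a signal of 1 or above in 3 or more of 6 libraries were fitted, each table alone, in R 4.3.3 with limma 3.58.1 (trend, no block). edgeR 4.0.16 and DESeq2 1.42.0 on recovered reads were alternatives, with a pseudocount of 0.25, no filter, library-size scaling, centring, a length and GC trend removed, a replicate block and each library left out. The planned test for raw counts was not the main one because the values are scaled. The limma and edgeR steps were tested on simulated data. Python 3.11.15 with pandas 2.3.3 and matplotlib 3.10.9 was used for the rest. Of the identifiers 99.8% and 99.9% were found in GENCODE vM21.

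Pairing was checked from each library's deviation from its group mean. Same-numbered Dox and CTL libraries correlated at 0.863, 0.584 and 0.736 across genes, so their numbers were taken to pair them. Same-numbered TKO and WT libraries correlated at 0.449, -0.135 and -0.293 and were not paired. The columns of Dox replicates 2 and 3 carry the same sequencing-sample suffix, so their identity rests on the replicate number.

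The members and lists were chosen with earlier results of these data known. Values are printed for each replacement gene past the filter, and for replication-dependent genes past the filter that passed the test or were among the 10 highest. Of each related list the 4 members with the smallest p in a comparison are named, with Slbp, Npat, Casp8ap2, Lsm10, Lsm11, Zfp473, Mki67 and Pcna. Depth limits genes of few reads, and counting error is only part of the spread.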

Additional observations from a re-analysis of the deposited data

How the results depend on the processing

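Of the values of single tested members under an alternative that leaves out no library, 310 kept their direction and their side of the threshold, 7 passed only under the alternative, 5 passed only as reported and 11 turned direction; the causes were not tested. In Dox against CTL the count of genes called, 0 as reported, was 99 with DESeq2, 265 with the replicate block and 930 with the block and the length and GC trend removed. Replacement genes called there were 2 with the block and 4 with the block and trend removed (H2afx, H2afy, H2afz and H3f3b), and replication-dependent ones 0. With the block, leaving out both libraries of a number, an alternative chosen after seeing the data, gave 134 calls without number 1, 1534 without number 2 and 591 without number 3, of which 0, 3 (H2afx, H2afz and H3f3b) and 4 (with H2afj) were replacement genes. In TKO against WT the numbers do not pair the libraries; the block called 5101 genes, against 5796 without it, and lost Hist3h2a (limma adjusted p = 0.079). With the block and trend removed 2 replication-dependent genes were called, Hist1h1c and Hist1h4i. Without the filter limma called 6197 genes in TKO against WT, 5 of them replication-dependent and all 5 higher in TKO. These were Hist1h1c, Hist1h4i and Hist2h3c2 with Hist1h1b and Hist1h4h, which are below the filter.

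Leaving out each library in turn, the calls in TKO against WT ranged from 3938 to 5723 for all genes, from 2 (without WT replicate 1) to 4 for replication-dependent genes and from 4 to 5 for replacement genes, and in Dox against CTL they were 0. With the trend removed, with or without the block, direction turned in TKO for H1fx (-0.38), H2afx (-0.15), H2afy (-0.12) and Hist1h3d (-0.065). Hist1h2bc was at 0.042 in TKO with library-size scaling, and Hist1h2be at 0.032 with edgeR and 0.013 with DESeq2 in Dox. Of the called members only Hist2h3c2 and Hist3h2a lost their call without a library. Log2 fold changes whose direction turned when 1 library was left out ranged, in TKO, from -0.039 to 0.21 for H1fx, -0.0082 to 0.21 for H2afv, -0.082 to 0.24 for Hist1h1d, -0.35 to 0.12 for Hist1h2bc, -0.068 to 0.31 for Hist1h2be and -0.074 to 0.26 for Hist1h3d. In Dox they ranged from -0.33 to 0.082 for H2afv, -0.084 to 0.21 for H2afy2, -0.42 to 0.12 for Hist1h1c, -0.26 to 0.033 for Hist1h1d, -0.079 to 0.35 for Hist1h2bc, -0.43 to 0.21 for Hist1h2be, -0.33 to 0.19 for Hist2h3c2 and -0.33 to 0.15 for Hist3h2a. Members of few reads are limited by depth, most of all in Dox and CTL.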
